A study of Mus musculus with 22 samples.

Results

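The Kruppel-like factors (KLFs) are transcription factors with a zinc finger domain that binds GC-rich and CACCC-type sequences in promoters and enhancers, and several of them act at set points of fat cell formation. The 10 members studied here, Klf2, Klf3, Klf4, Klf5, Klf6, Klf7, Klf9, Klf10, Klf13 and Klf15, were chosen by name, for a known or proposed role in adipogenesis, with no measured value in the rule. Each of the 10 has a row among the 30170 genes of the count table, which lists 17 Klf genes in all, and all 10 are among the 14520 genes that passed the filter on low counts.

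RNA was sequenced in C3H 10T1/2 cells, a mouse mesenchymal cell line that forms adipocytes under hormonal induction, expressing DNMT3A WT, W330R or W330R-R181E. WT and W330R were sampled undifferentiated and on days 2, 4 and 6 of adipocyte differentiation, and W330R-R181E, called the double mutant below, on days 2, 4 and 6, with 2 libraries for each of the 11 conditions. Cells were grown in DMEM with serum. Induced cells received isobutylmethylxanthine, which raises cAMP, with dexamethasone, a glucocorticoid, insulin and the PPARγ ligand troglitazone for the first 2 days, and serum with insulin alone afterwards. The sources used here give neither whether each genotype is 1 clone or a pool, nor whether the cells keep their own Dnmt3a, so genotype and line cannot be told apart. Nor do they say that replicates are separate cultures, so the p-values measure only the spread between these libraries, which may be technical.

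In the early phase of adipogenesis, cAMP and glucocorticoid signals induce the transcription factors C/EBPβ and C/EBPδ, which in turn raise Pparg and Cebpa, the regulators of the mature fat cell. Klf4 acts with Egr2 on the Cebpb gene, and Klf5 is induced by C/EBPβ and C/EBPδ and acts on the Pparg promoter. Klf6 represses the preadipocyte gene Dlk1. Klf9 and Klf15 are glucocorticoid-responsive and act on Pparg and on the glucose transporter gene Slc2a4 respectively. Klf2, Klf3 and Klf7 hold differentiation back, Klf2 at the Pparg promoter and Klf3, with its corepressor CtBP, at Cebpa.

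The deposited estimated counts summed to between 8859501 and 47453908 per library. Summed levels of 10 mesenchymal markers ran from 2730 to 21200 CPM (the count of a gene scaled to the size of its library). Much of this sum came from Vim, Col1a1 and Col1a2, with up to 7670, 7530 and 7920 CPM. Nt5e reached at most 1.27 CPM and Thy1 was at 0 in 3 libraries, so the sum does not identify the line. The 6 adipocyte markers summed to 11.8 to 16.2 CPM in undifferentiated cells and to 1490 to 9620 CPM from day 2 on. Markers of haematopoietic, endothelial, epithelial and skeletal muscle cells each summed to at most 24.2 CPM, with Epcam at 0 in 22 libraries. The 5 osteoblast markers summed to 32.6 to 101 CPM, most of it Runx2. Levels of Dnmt3a lay between 68.5 and 347 CPM and passed the test in none of the 4 genotype comparisons, although reads of an expressed DNMT3A could be among them. The 4 undifferentiated libraries carry column names of another pattern than the 18 from days 2 to 6, so the step from undifferentiated cells to day 2 and whatever goes with that naming cannot be told apart. Replicates of undifferentiated cells also lay closer together than those of any other condition, with a median chi-square per gene of 0.682 to 0.787 between them against 3.77 to 10.2 elsewhere, while sampling alone gives 0.455. Replicate 1 of the double mutant on day 6 stood apart in the interferon-induced gene Ifit1, at 307 against 6.28 CPM in replicate 2, and in Fos. In W330R too, replicate 1 exceeded replicate 2 in Ifit1 on day 2 (68.0 against 2.63 CPM), day 4 (115 against 6.22 CPM) and day 6 (38.3 against 10.1 CPM), whereas WT libraries of these days had at most 2.21 CPM. The part of this in the genotype comparisons was not tested.

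The promoters of Klf3, Klf4 and Klf9 are shown because Klf3 and Klf4 had the most similar profiles of any pair of members and Klf9 the one most opposed to Klf4. Each run holds the 250 bases before the annotated start in RefSeq on build GRCm38.p6, 5′ to 3′ on the strand of the gene. Capitals mark the GC box GGGCGG and the CACCC box CACCC on either strand, which can overlap each other. The windows are chr5:64803271-64803520 on the plus strand for Klf3, chr4:55532476-55532725 on the minus strand for Klf4 and chr19:23140976-23141225 on the plus strand for Klf9.
Klf3: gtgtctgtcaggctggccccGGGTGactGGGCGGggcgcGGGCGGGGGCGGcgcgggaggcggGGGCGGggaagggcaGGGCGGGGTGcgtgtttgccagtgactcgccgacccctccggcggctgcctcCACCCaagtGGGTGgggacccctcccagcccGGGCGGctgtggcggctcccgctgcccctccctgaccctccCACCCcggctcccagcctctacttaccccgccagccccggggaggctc
Klf4: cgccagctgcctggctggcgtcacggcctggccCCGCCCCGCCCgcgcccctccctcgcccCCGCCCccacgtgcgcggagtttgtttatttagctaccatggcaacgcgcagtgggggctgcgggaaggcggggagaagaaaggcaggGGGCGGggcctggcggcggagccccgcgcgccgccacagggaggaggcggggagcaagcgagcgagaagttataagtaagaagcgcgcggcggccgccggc
Klf9: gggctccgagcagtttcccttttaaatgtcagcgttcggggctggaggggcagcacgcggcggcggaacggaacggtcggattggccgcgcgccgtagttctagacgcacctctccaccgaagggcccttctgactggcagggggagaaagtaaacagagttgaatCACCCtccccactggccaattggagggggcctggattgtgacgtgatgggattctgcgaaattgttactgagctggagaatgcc
Klf3 held 6 GC boxes and 5 CACCC boxes in its window, Klf4 held 4 GC boxes and no CACCC box, and Klf9 held 1 CACCC box and no GC box. Of the 8 members with a promoter entry, 7 held at least 1 GC box against 32.7% of 32851 promoters of the same length, and 6 held a CACCC box against 52.0%. The letters TGACG, a part of the cAMP response element, were found on either strand in 5 of 8 against 17.8% of promoters, CCAAT in 4 of 8 against 33.8%, and TATAAA in 0 of 8 against 12.4%. The 8 windows held a median of 23.5 CpG dinucleotides, the sites that DNMT3A methylates, against 6 over all promoters. These are counts of letters only, and neither methylation nor binding was measured in these libraries.

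Levels of different genes can be compared only per length, as CPM per kilobase of transcript. On this scale the median over 22 libraries was 34.2 for Klf6, 19.4 for Klf13, 18.5 for Klf3, 15.3 for Klf2, 13.7 for Klf9, 11.9 for Klf4, 4.47 for Klf10, 3.20 for both Klf5 and Klf7, and 0.228 for Klf15. The order depended on stage: Klf4, at 132 CPM per kilobase in undifferentiated WT cells, was the most abundant member there, whereas on day 2 in WT Klf9 led with 20.8. Summed over the 10 members, the level was 1160 to 1180 CPM in undifferentiated WT libraries, 342 to 459 CPM on day 2 and 522 to 612 CPM on day 6.

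**Figure D1:**
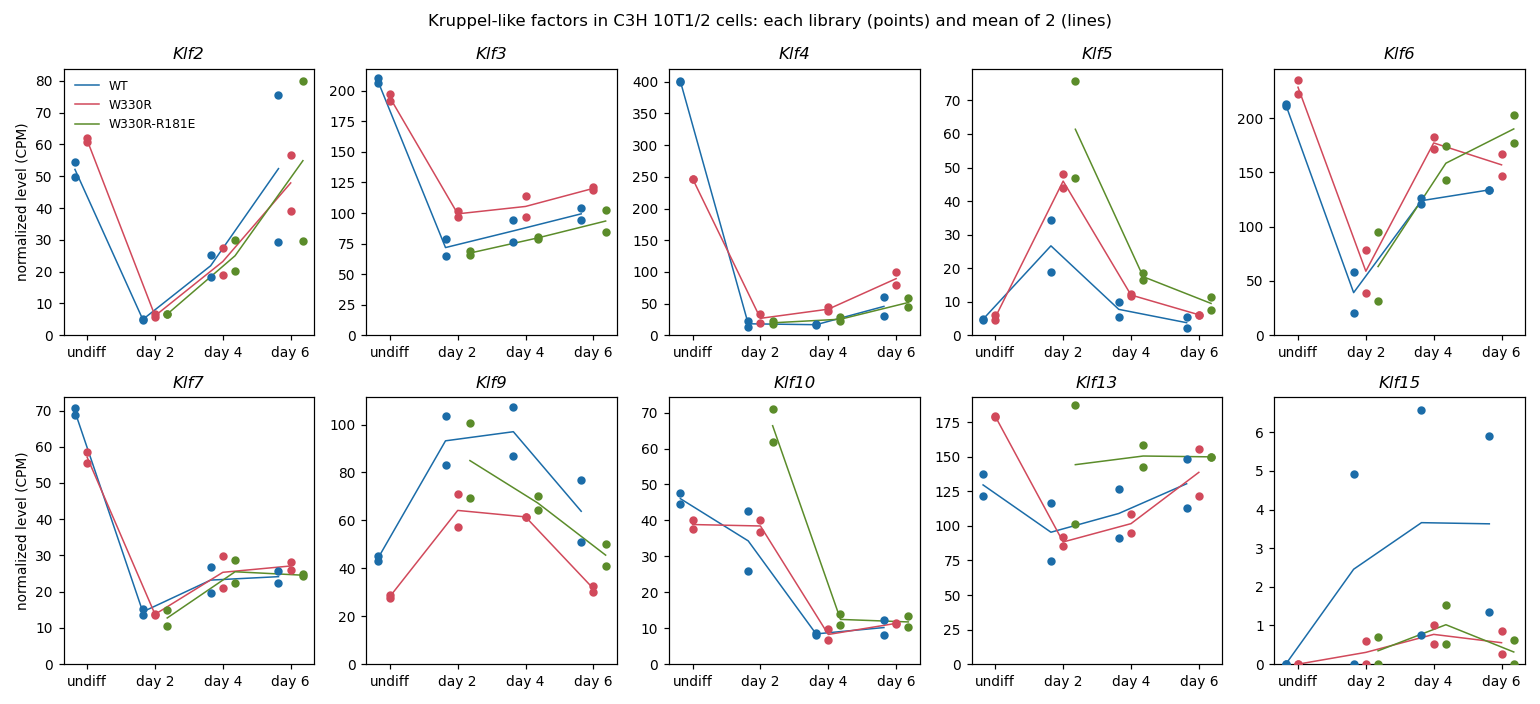
Level of each of the 10 Kruppel-like factors in each library (points, CPM on a linear axis from 0 that differs between panels) by stage, with the mean of the 2 libraries of a condition joined by lines. Blue is WT, red W330R and green the double mutant, which has no undifferentiated sample. Klf2, Klf3, Klf4, Klf6 and Klf7 drop between undifferentiated cells and day 2, whereas Klf5 peaks on day 2 and Klf9 rises.

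The first question was how the factors move on entry into differentiation. Between undifferentiated cells and day 2, edgeR called 7 of the 10 members in WT, 2 higher and 5 lower, against 50.9% of all genes tested, and 8 in W330R, 2 higher and 6 lower, against 48.2% of genes. The median log2 fold change of the members was -0.99 in each genotype, against 0.06 and 0.08 over all genes. Klf2, Klf3, Klf4, Klf6 and Klf7 fell and Klf5 and Klf9 rose in WT and in W330R, and Klf13 fell in W330R without passing the test in WT. The difference between the genotypes in this step was called for no member by edgeR or DESeq2, against 1.87% of genes by edgeR, and 2 members had an unadjusted p under 0.05.

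Klf4, which acts early and is also known as a pluripotency factor, moved the most in WT. It stood at 400.1 and 401.5 CPM in undifferentiated WT cells and at 22.4 and 13.8 CPM on day 2. W330R cells went from 247.0 and 247.3 CPM to 34.0 and 19.4 CPM. The 2 stages were far apart in either genotype, the highest day 2 library being below the lowest undifferentiated one by many times the gap between replicates. The log2 fold change was -4.48 ± 0.35 (SE, n = 2 per condition, edgeR adjusted p = 3.48e-07) in WT and -3.21 ± 0.33 (adjusted p = 4.71e-06) in W330R.

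Klf2, best known from endothelial cells and a repressor of Pparg, fell by about the same factor in both genotypes. Its level was 54.5 and 49.8 CPM in undifferentiated WT cells against 4.91 and 5.02 CPM on day 2, and 60.8 and 61.9 CPM against 5.67 and 6.55 CPM in W330R. Every day 2 library of the 3 genotypes, the double mutant at 6.73 and 6.54 CPM included, lay below every library of the other stages. The changes were -3.39 ± 0.48 (edgeR adjusted p = 5.37e-05) in WT and -3.32 ± 0.47 (adjusted p = 6.77e-05) in W330R on the log2 scale.

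The other factors that hold differentiation back moved the same way and less far. Klf7 went from 68.8 and 70.6 CPM to 13.6 and 15.3 CPM in WT, and from 55.6 and 58.6 CPM to 13.7 and 13.8 CPM in W330R. Klf3 went from 210.9 and 206.0 CPM to 78.8 and 64.7 CPM in WT, and from 191.3 and 197.7 CPM to 101.9 and 96.8 CPM in W330R. For both genes the 2 stages were fully apart in each genotype, and day 2 levels of Klf3 in W330R sat above those of WT. The log2 changes in WT were -2.27 ± 0.21 for Klf7 (edgeR adjusted p = 1.28e-06) and -1.54 ± 0.14 for Klf3 (adjusted p = 9.45e-07), and in W330R -2.05 ± 0.21 (adjusted p = 3.74e-06) and -0.97 ± 0.14 (adjusted p = 5.81e-05).

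Klf6, which counts as a promoter of adipogenesis, fell as well. It went from 211.1 and 213.3 CPM to 58.2 and 20.3 CPM in WT, and from 221.9 and 234.8 CPM to 78.8 and 39.1 CPM in W330R. The double mutant had 95.0 and 31.5 CPM on day 2. In each of the 3 genotypes replicate 1 of day 2 was the higher by 2.01 to 3.01 times, and even so all 6 day 2 libraries lay below both undifferentiated groups. The log2 change was -2.44 ± 0.48 (edgeR adjusted p = 0.000783) in WT and -1.95 ± 0.47 (adjusted p = 0.00364) in W330R.

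Klf5, the member that links the early C/EBP wave to Pparg, rose. From 4.93 and 4.63 CPM in undifferentiated WT cells it reached 34.4 and 18.9 CPM on day 2, and from 6.04 and 4.63 CPM in W330R it reached 48.0 and 43.9 CPM. The double mutant had its highest levels on the same day, 75.8 and 47 CPM. No undifferentiated library overlapped with day 2, and the W330R libraries lay above those of WT on day 2. The log2 change was 2.48 ± 0.42 (edgeR adjusted p = 0.000242), a 5.57-fold rise, in WT, and 3.10 ± 0.43 (adjusted p = 5.82e-05), an 8.55-fold rise, in W330R.

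Klf9, a glucocorticoid-induced factor, rose about as much in both genotypes from different starting levels. It went from 45.0 and 42.9 CPM to 83.0 and 103.4 CPM in WT and from 27.5 and 28.9 CPM to 57.1 and 71.2 CPM in W330R. The undifferentiated and day 2 libraries were apart within each genotype, and the W330R libraries were the lower at both stages. The log2 change was 1.09 ± 0.21 (edgeR adjusted p = 0.000691) in WT and 1.19 ± 0.21 (adjusted p = 0.000459) in W330R.

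Klf13, a broadly expressed member, stood at 137.5 and 121.7 CPM in undifferentiated WT cells and at 116.4 and 74.4 CPM on day 2, and at 178.9 and 179.4 CPM against 85.1 and 91.6 CPM in W330R. The drop was -0.44 ± 0.27 (edgeR adjusted p = 0.180) in WT and -1.02 ± 0.27 (adjusted p = 0.00612) in W330R. Without replicate 1 of WT on day 2 the WT change was -0.80 with an adjusted p of 0.0485. Klf10, an immediate early target of TGF-β, had 44.5 and 47.6 CPM before and 42.6 and 26.0 CPM on day 2 in WT, and 40.0 and 37.7 CPM against 36.9 and 40.0 CPM in W330R. Its libraries were mostly of similar level at these stages, with replicate 2 of WT on day 2 as the low one, and neither genotype passed the test (log2 changes -0.43 ± 0.24, edgeR adjusted p = 0.147, and -0.02 ± 0.24, adjusted p = 0.968). Without replicate 1 of WT on day 2 the WT change was -0.82 with an adjusted p of 0.0179.

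Klf15, which acts late and on Slc2a4, was listed at 0 counts in the 4 undifferentiated libraries, which allows up to 0.347 CPM in the shallowest of them. In WT it was at 4.91 and 0 CPM on day 2, 6.57 and 0.75 CPM on day 4 and 5.90 and 1.36 CPM on day 6, so that replicate 1 was the high one each time. W330R libraries held at most 1.02 CPM and double mutant libraries at most 1.52 CPM, and 8 of the 22 libraries were at 0. Such splits were not confined to Klf15 among the WT day 2 libraries, where 31 genes had 0 counts in 1 library and 50 or more in the other. For Klf15 no fold against undifferentiated cells is given. Its difference over days 2 to 6 between W330R and WT (log2 -2.62 ± 1.05, edgeR adjusted p = 0.0801) was -2.61 with an adjusted p of 0.0249 with no filter on low counts. Without replicate 2 of WT on day 2 it was -2.96, a value that rests on the 1 library left for that condition, at 4.91 CPM. Without replicate 1 of WT on day 2 it was 0.26, but the library then left is the one at 0, so this value is no estimate of the difference. On day 6 both W330R libraries, at 0.25 and 0.86 CPM, were below both WT libraries.

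**Figure D2:**
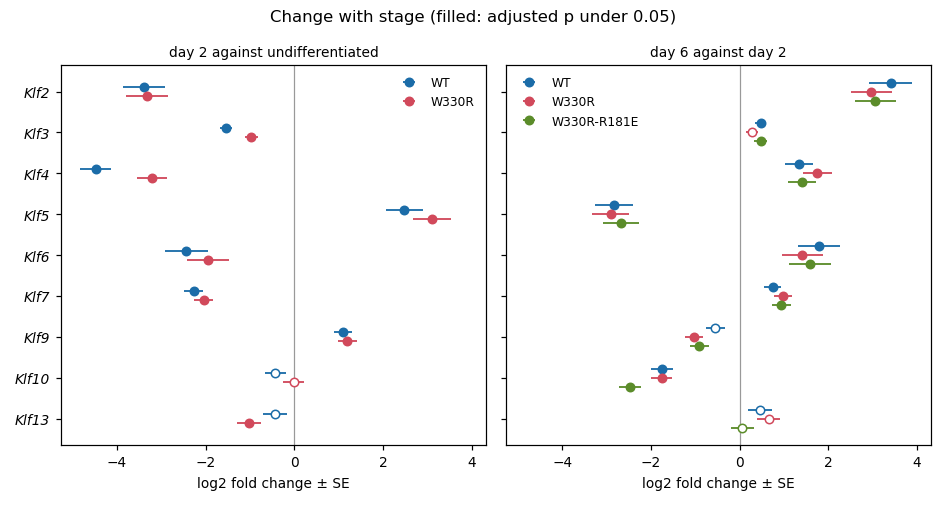
Log2 fold change with its SE of 9 members between day 2 and undifferentiated cells (left) and between day 6 and day 2 (right), by genotype in color. Filled points passed an adjusted p of 0.05. Klf2, Klf3, Klf4, Klf6 and Klf7 lie left of 0 in the first panel and right of it in the second, and Klf5 and Klf9 do the reverse.

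The second question was how the levels moved from day 2, the end of the hormone cocktail, to day 6. Between these days edgeR called 7 members in WT (5 higher, 2 lower, against 26.6% of genes), 7 in W330R (4 higher, 3 lower, against 25.0%) and 8 in the double mutant (5 higher, 3 lower, against 23.2%). Klf2, Klf4, Klf6 and Klf7 rose and Klf5 and Klf10 fell in each genotype. Klf3 passed the test in WT and in the double mutant, and Klf9 fell in W330R and in the double mutant. No member differed in this step between W330R and WT by edgeR, where 0.0895% of genes did, nor by DESeq2, and 0 members reached an unadjusted p under 0.05. The median log2 fold change of the members was 0.53, 0.68 and 0.27 in the 3 genotypes, against 0.02, 0.01 and 0 over all genes. In fits of only the 4 libraries of a comparison, 3 members were called in WT, 8 in W330R and 1 in the double mutant. The day 2 libraries enter both the drop before and the return after, so the 2 steps are not independent of each other.

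Klf2 made the widest return. From day 2 on it went to 18.4 and 25.3 CPM on day 4 and 75.5 and 29.3 CPM on day 6 in WT. W330R had 19.0 and 27.4 CPM, then 56.8 and 39.0 CPM. The double mutant had 29.9 and 20.1 CPM, then 80.1 and 29.7 CPM. Replicate 1 was the higher in each genotype on day 6, and the day 6 libraries spanned the undifferentiated level. The log2 change from day 2 to day 6 was 3.40 ± 0.48 in WT (edgeR adjusted p = 0.000243), 2.97 ± 0.46 in W330R (adjusted p = 0.000651) and 3.06 ± 0.47 in the double mutant (adjusted p = 0.000690), the last of which was 2.16 without replicate 1 of day 6, with an adjusted p of 0.0074.

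Klf6 and Klf7 were back at an intermediate level on both later days. Klf6 stood at 121.1 and 126.7 CPM on day 4 and 133.9 and 133.8 CPM on day 6 in WT, at 171.3 and 182.8 then 146.5 and 167.3 CPM in W330R, and at 174.0 and 142.8 then 177.4 and 202.5 CPM in the double mutant. These 12 libraries were all above the 6 of day 2 and below the 4 undifferentiated ones. Its log2 change from day 2 to day 6 was 1.78 ± 0.47 (edgeR adjusted p = 0.0131) in WT, 1.41 ± 0.46 (adjusted p = 0.0386) in W330R and 1.59 ± 0.47 (adjusted p = 0.0256) in the double mutant. Leaving out single libraries ended these calls in 1 of 4 cases in WT (replicate 2 of day 2, adjusted p = 0.104) and in 3 of 4 in each of the other genotypes, the case that kept the call being the one without replicate 1 of day 2, with adjusted p up to 0.233 in W330R and 0.204 in the double mutant. Klf7, from 26.8 and 19.6 CPM on day 4 to 25.8 and 22.5 CPM on day 6 in WT, stayed at less than the undifferentiated level in every library of the 3 genotypes. Its range from day 4 on was 19.6 to 29.8 CPM. Its log2 change from day 2 to day 6 was 0.74 ± 0.20 (edgeR adjusted p = 0.0157) in WT, 0.98 ± 0.20 (adjusted p = 0.00345) in W330R and 0.94 ± 0.21 (adjusted p = 0.00564) in the double mutant. The WT call was lost without replicate 1 of day 2 or of day 6, with adjusted p up to 0.104.

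Klf4 recovered only in part, and in WT not yet on day 4. It was at 17.5 and 15.8 CPM on day 4 and 60.0 and 31.1 CPM on day 6 in WT, at 44.0 and 38.3 then 99.1 and 79.6 CPM in W330R, and at 28.1 and 22.5 then 59.2 and 44.2 CPM in the double mutant. The highest of these was below every undifferentiated library, and W330R was above both other genotypes on day 4 and on day 6. From day 2 to day 6 the log2 change was 1.34 ± 0.32 (edgeR adjusted p = 0.00706) in WT, 1.75 ± 0.32 (adjusted p = 0.00153) in W330R and 1.4 ± 0.32 (adjusted p = 0.00680) in the double mutant. The WT call was lost without replicate 2 of day 2 or replicate 1 of day 6 (log2 change down to 0.79, adjusted p up to 0.119), and the double mutant call without the same pair of its own libraries (adjusted p up to 0.0788).

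Klf3 rose little, to 94.6 and 104.1 CPM on day 6 in WT, 119.2 and 121.2 CPM in W330R and 84.4 and 102.5 CPM in the double mutant. In each genotype both day 6 libraries were above both of day 2 and far below the undifferentiated level of Klf3. The log2 change was 0.47 ± 0.13 (edgeR adjusted p = 0.0192) in WT, 0.28 ± 0.13 (adjusted p = 0.151) in W330R and 0.47 ± 0.14 (adjusted p = 0.0227) in the double mutant. Without replicate 2 of day 2 or of day 6 the Klf3 calls in WT and in the double mutant were lost, with adjusted p up to 0.123 and 0.146.

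Klf5 was transient. It was at 10.0 and 5.44 CPM on day 4 and 5.45 and 2.04 CPM on day 6 in WT, at 11.8 and 12.2 then 6.14 and 6.08 CPM in W330R, and at 18.5 and 16.4 then 11.4 and 7.58 CPM in the double mutant. The day 6 libraries of WT and W330R, from 2.04 to 6.14 CPM, lay near the undifferentiated level of 4.63 to 6.04 CPM, and those of the double mutant above it. From day 2 to day 6 the log2 change was -2.84 ± 0.43 in WT, -2.91 ± 0.41 in W330R and -2.67 ± 0.41 in the double mutant (edgeR adjusted p = 0.000372, 0.000360 and 0.000702), a fall of 7.15, 7.51 and 6.36 times.

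Klf10 dropped after day 2 in each genotype, whereas its change before that day had not passed the test in WT or in W330R. It was at 8.23 and 8.61 CPM on day 4 and 12.2 and 8.17 CPM on day 6 in WT, with 6.81 and 9.71 then 11.4 and 11.3 CPM in W330R, and 11 and 13.9 then 13.3 and 10.2 CPM in the double mutant, which had 71.0 and 61.7 CPM on day 2. The 12 libraries of days 4 and 6 were all below the 10 earlier ones, of which the lowest had 26.0 CPM. From day 2 to day 6 the log2 change was -1.75 ± 0.25, -1.76 ± 0.24 and -2.48 ± 0.25 in WT, W330R and the double mutant (edgeR adjusted p = 0.000230, 0.000295 and 3.16e-05).

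Klf9 declined from its high of days 2 and 4. In WT it was at 86.7 and 107.3 CPM on day 4 and 50.9 and 76.7 CPM on day 6, in W330R at 61.6 and 61.3 then 30.2 and 32.8 CPM, and in the double mutant, from 69.3 and 100.6 CPM on day 2, at 64.4 and 70.1 then 40.8 and 50.2 CPM. Both day 6 libraries were below both day 2 libraries in each genotype, and in W330R they were close to the 27.5 and 28.9 CPM of undifferentiated cells. The log2 change was -0.55 ± 0.21 (edgeR adjusted p = 0.0661) in WT, where it was -0.87 with an adjusted p of 0.0174 without replicate 2 of day 6, -1.03 ± 0.21 (adjusted p = 0.00323) in W330R and -0.91 ± 0.21 (adjusted p = 0.00771) in the double mutant. The last call was lost without replicate 2 of day 2 or replicate 1 of day 6 (adjusted p up to 0.104). With the replicate number added to the fit as a block, the WT change of Klf9 was -0.558 and passed the test (edgeR adjusted p = 0.0112). Klf13 passed the main test in no genotype between these days, with log2 changes of 0.45 ± 0.27, 0.65 ± 0.26 and 0.06 ± 0.26 (edgeR adjusted p = 0.228, 0.0887 and 0.910). In W330R it was called by DESeq2 (0.67, adjusted p = 0.0488). The edgeR fit of only the conditions compared called it too (0.649, adjusted p = 0.0408). Klf13 levels on days 4 and 6 ranged from 91.0 to 158.2 CPM over the 3 genotypes.

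The span was also split at day 4. Between day 2 and day 4 the calls were Klf2, Klf5, Klf6, Klf7 and Klf10 in WT (5 members against 10.8% of genes), the same 5 in W330R (against 12.4%) and Klf2, Klf5, Klf7 and Klf10 in the double mutant (4 members against 10.7%). In this span Klf2 rose 4.40-fold in WT, 3.80-fold in W330R and 3.77-fold in the double mutant (edgeR adjusted p = 0.0104, 0.0146 and 0.0188), and Klf10 fell by 4.06, 4.63 and 5.32 times (adjusted p = 0.000324, 0.000323 and 0.000110). Between day 4 and day 6 edgeR called no member in WT (against 0.324% of genes), W330R (0%) or the double mutant (0.0207%), while 4 members, Klf2, Klf4, Klf5 and Klf9, had an unadjusted p under 0.05 in each. Klf4 had a log2 change of -0.11 ± 0.32 to day 4 and of 1.45 ± 0.32 after it in WT (edgeR adjusted p = 0.873 and 0.0776), and Klf9 in W330R of -0.06 ± 0.21 and then -0.96 ± 0.21 (adjusted p = 0.885 and 0.145). Neither DESeq2 nor leaving out libraries was run on these comparisons.

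The third question was whether the DNMT3A mutants differ from WT. In undifferentiated cells edgeR called no member between W330R and WT, against 1.75% of genes, and DESeq2 called 0 as well, while 2 members, Klf4 and Klf9, had an unadjusted p under 0.05. Their replicates were nevertheless far apart between the genotypes, with Klf4 at 247.0 and 247.3 CPM in W330R against 400.1 and 401.5 CPM in WT (log2 -0.70 ± 0.31, edgeR adjusted p = 0.357) and Klf9 at 27.5 and 28.9 against 45.0 and 42.9 CPM (-0.64 ± 0.21, adjusted p = 0.184). The spread of the test was set by all 11 conditions, and a fit of the 4 undifferentiated libraries alone, whose pairs lie close together, called 6 members, Klf4 with an adjusted p of 3.7e-06 among them, and 4043 genes in place of 254.

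Over days 2 to 6, W330R differed from WT in 4 members, 3 higher and 1 lower, against 29.0% of genes. In W330R Klf4 was higher by 0.95 ± 0.18 on the log2 scale (edgeR adjusted p = 0.00171, 1.93-fold), Klf3 by 0.35 ± 0.08 (adjusted p = 0.00426) and Klf5 by 0.71 ± 0.23 (adjusted p = 0.0319), and Klf9 was lower at -0.74 ± 0.12 (adjusted p = 0.000611, 1.67 times less). Klf3 was higher in both W330R libraries than in both WT libraries on each of the 3 days, Klf4 on days 4 and 6, and Klf5 on each day. Klf9 was lower in both W330R libraries than in both WT libraries on each day and also before differentiation. The 4 comparisons kept their direction without any of the 12 libraries, and Klf3, Klf4 and Klf9 kept their call, whereas the Klf5 call was lost in 9 of 12 cases and held only without replicate 1 of WT on day 2, 4 or 6, with log2 changes from 0.53 to 1.00. Its adjusted p ranged from 0.00374 to 0.109.

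Klf2 at 0.09 ± 0.25, Klf6 at 0.45 ± 0.26, Klf7 at 0.07 ± 0.12, Klf10 at 0.10 ± 0.14 and Klf13 at -0.04 ± 0.15 did not pass the test in this comparison (edgeR adjusted p = 0.839, 0.225, 0.681, 0.627 and 0.880). For Klf6 the libraries on day 2 overlapped and those on days 4 and 6 were higher in W330R than in WT, and without replicate 1 of WT on day 2 the change was 0.76 with an adjusted p of 0.0295. On single days Klf4 passed the test on day 4 (log2 1.3 ± 0.32, edgeR adjusted p = 0.0308, against 6.14% of genes) and Klf9 on day 6 (-1.02 ± 0.21, adjusted p = 0.0108, against 7.54%). On day 2 edgeR called no member, against 3.06% of genes, with 2 at an unadjusted p under 0.05, and DESeq2 was not run on single days.

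**Figure D3:**
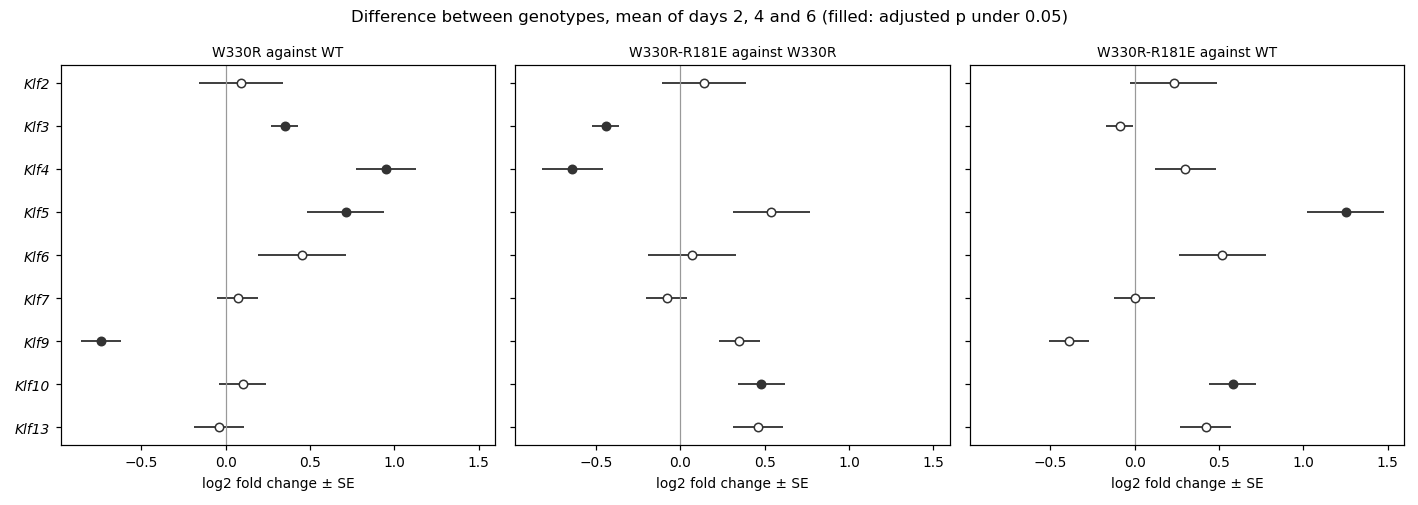
Log2 fold change with its SE of 9 members between genotypes, as the mean of days 2, 4 and 6 (6 libraries per genotype). Filled points passed an adjusted p of 0.05. Klf3 and Klf4 are right of 0 in the first panel and left of it in the second, Klf9 the reverse, and Klf5 and Klf10 are the filled points in the third.

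For Klf4 and Klf3 both W330R libraries were below both WT libraries before differentiation and above them on days 4 and 6. In a contrast added after these values were seen, the W330R against WT difference over days 2 to 6 minus that in undifferentiated cells was 1.64 ± 0.36 on the log2 scale for Klf4 (edgeR adjusted p = 0.0145), the only 1 of 10 members called, against 6.74% of genes. Klf3 had 0.45 ± 0.16 (adjusted p = 0.102) in the same test. The Klf4 call was lost without any 1 of the 4 undifferentiated libraries, with log2 values from 1.49 to 1.83 over the 16 cases and adjusted p up to 0.0871, and it held without any library of days 2 to 6. As the value was seen first, the test is no independent evidence.

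The double mutant carries R181E in addition to W330R, and the comparison with W330R asks what that adds. Against W330R over days 2 to 6, edgeR called 3 members, 1 higher and 2 lower, against 17.2% of genes. Klf3 was lower at -0.44 ± 0.08 (edgeR adjusted p = 0.00159), Klf4 was lower at -0.64 ± 0.18 (adjusted p = 0.0250) and Klf10 was higher by 0.48 ± 0.14 (adjusted p = 0.0298). On each of the 3 days both double mutant libraries had less Klf3 than either W330R library, and its call held without each of the 12 libraries. The Klf4 call was lost in 6 of 12 cases, without replicate 1 of any W330R day or replicate 2 of any double mutant day, with log2 values from -0.76 to -0.49 and adjusted p up to 0.0830. The Klf10 call was lost in 8 of 12 cases, with log2 values from 0.40 to 0.57 and adjusted p up to 0.0954, and was kept without replicate 2 of W330R on day 4, replicate 2 of the double mutant on day 2, replicate 1 on day 4 or replicate 2 on day 6.

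Klf9 at 0.35 ± 0.12 (edgeR adjusted p = 0.0584), Klf13 at 0.46 ± 0.15 (adjusted p = 0.0516) and Klf5 at 0.54 ± 0.23 (adjusted p = 0.121) lay above 0 in the same comparison without passing the test, and DESeq2 called Klf9 (adjusted p = 0.0346) and Klf13 (adjusted p = 0.0173). Klf13 was at 187.2 and 101.3 CPM on day 2, 158.2 and 142.8 CPM on day 4 and 150.1 and 149.7 CPM on day 6 in the double mutant, above both W330R libraries on days 2 and 4 and within their range on day 6. It was called without replicate 2 of the double mutant on day 2 (0.60, adjusted p = 0.00763). Klf9 was called without replicate 1 of the double mutant on day 2 or on day 6 (log2 up to 0.43, adjusted p down to 0.0233). On single days Klf3 was called on day 2 (-0.56 ± 0.14, edgeR adjusted p = 0.0405, against 2.67% of genes). On day 4 (1.91% of genes) and day 6 (1.50% of genes) edgeR called no member, with 3 members at an unadjusted p under 0.05 on each day, and DESeq2 was not run there.

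Against WT over days 2 to 6 the double mutant had 2 members called, both higher, against 9.57% of genes. Klf5 was higher by 1.25 ± 0.23 on the log2 scale (edgeR adjusted p = 0.00701, 2.38-fold), in both libraries on each day, and its call held without each of the 12 libraries. Klf10 was higher by 0.58 ± 0.14 (adjusted p = 0.0217), apart from WT on days 2 and 4 and overlapping on day 6. The Klf10 call was lost in 5 of 12 cases, without replicate 2 of any WT day or replicate 1 of the double mutant on day 2 or day 6, with log2 values from 0.48 to 0.71 and adjusted p up to 0.0752. Klf3 at -0.09 ± 0.08 and Klf4 at 0.30 ± 0.18 did not pass the test (edgeR adjusted p = 0.465 and 0.299), nor did Klf9 at -0.39 ± 0.12 (adjusted p = 0.0583) and Klf13 at 0.42 ± 0.15 (adjusted p = 0.0936), both of which DESeq2 called (adjusted p = 0.0270 and 0.0477). Klf9 was called in 5 of 12 cases with a library left out, without replicate 1 of any WT day or replicate 2 of the double mutant on day 2 or day 6. Klf6 was called without replicate 1 of WT on day 2 (adjusted p = 0.0426), and Klf13 without that library or without replicate 2 of the double mutant on day 2 (adjusted p down to 0.0195). The 3 genotype comparisons share their libraries in pairs, so their values for a member are set side by side and not counted as agreement. In a fit of only the 12 libraries of a comparison, the Klf5 call was lost both between W330R and WT (adjusted p = 0.0728) and between the double mutant and WT (adjusted p = 0.0774), and the Klf10 call of the latter (adjusted p = 0.120). Between the double mutant and W330R such a fit gained a call, that of Klf5 (log2 0.547, edgeR adjusted p = 0.0396).

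The genes around the KLFs in the adipogenic cascade were described by a list of their own. Of its 13 genes Dlk1, the gene that Klf6 represses, did not pass the filter on low counts. Dlk1 reached at most 0.245 CPM and was at 0 in 16 of 22 libraries. Of 12 such genes tested, 7 were higher and 2 lower on day 2 against undifferentiated WT cells, among them Slc2a4 (log2 6.94 ± 0.70), Cebpb (4.43 ± 0.42), Cebpa (2.65 ± 0.33) and Cebpd (2.16 ± 0.36). In W330R 6 were higher and 2 lower, with Cebpb at 5.21 ± 0.44 and Cebpa at 0.93 ± 0.33. Of all genes, 50.9% in WT and 48.2% in W330R were called in this step. Over days 2 to 6 W330R was lower than WT in 4 of the 12 and higher in 0, namely Cebpa, the gene at which Klf3 acts (-2.21 ± 0.18), Slc2a4, the target of Klf15 (-2.20 ± 0.21), Cebpb (-0.68 ± 0.21) and Pparg (-0.62 ± 0.16), by edgeR at an adjusted p under 0.05, a share close to the 29.0% of all genes called in this comparison. The double mutant was higher than W330R in Slc2a4 (0.90 ± 0.21) and Cebpa (0.66 ± 0.18), against 17.2% of all genes called. It was lower than WT in Cebpa, Slc2a4 and Cebpb, against 9.57% of all genes called. The adipocyte program, 14 genes, had 11 below WT and 0 above it in W330R over these days (median log2 -1.31 against 0.02 over all genes), where 29.0% of all genes were called. The double mutant exceeded W330R in 8 of these genes and was below it in 1, against 17.2% of all genes called. Summed over 6 adipocyte markers, day 6 levels were 5050 to 9620 CPM in WT, 1490 to 1690 CPM in W330R and 1870 to 3100 CPM in the double mutant. Of 10 mesenchymal markers, 7 were lower and 1 higher on day 2 than in undifferentiated cells in each genotype, where 50.9% of all genes in WT and 48.2% in W330R were called. Over days 2 to 6 W330R was higher than WT in 5 of the markers and lower in 0, against 29.0% of all genes called. The 5 osteoblast markers summed to 61.2 to 69.3 CPM in W330R against 34.8 to 47.7 CPM in WT on day 4. On day 6 they summed to 79.6 to 81.8 against 39.6 to 59.7 CPM. Most of this sum was Runx2, which reached 101 CPM. Alpl, Ibsp, Sp7 and Bglap reached at most 5.11, 0.975, 0.397 and 0.246 CPM in any library. In bulk RNA, fewer adipocytes and less RNA per adipocyte cannot be told apart, and the part of the cell mixture in the KLF differences was not tested.

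Among 9 glucocorticoid-induced genes, of which Fkbp5 and Zbtb16 are typical, 7 rose between undifferentiated cells and day 2 in WT and 8 in W330R, with none falling. Of all genes, 50.9% and 48.2% were called in this step. From day 2 to day 6, 7 of the 9 fell in each of the 3 genotypes, where 26.6%, 25.0% and 23.2% of all genes were called. The summed level of the 9 was 534 to 545 CPM in undifferentiated WT cells, 2330 to 3350 CPM on day 2 and 525 to 843 CPM on day 6. Over days 2 to 6 W330R was lower in 3 of the 9 (Zbtb16 -1.20 ± 0.28, Sgk1 -0.82 ± 0.23 and Per1 -0.29 ± 0.08) and higher in 0, again a share near the 29.0% of all genes. Across the 22 libraries, which share conditions, log2 CPM of Fkbp5 had a Pearson correlation of 0.89 with that of Klf9 and of -0.92 with that of Klf4, and over the 18 libraries of days 2 to 6 of 0.88 and -0.90. Klf2, Klf7, Klf3, Klf6 and Klf13 had -0.85, -0.83, -0.81, -0.69 and -0.64 with Fkbp5 across the 22 libraries. Klf5 had 0.65, Klf15 0.31 and Klf10 -0.07.

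Of 15 immediate early genes, 3 were lower and 0 higher on day 2 than in undifferentiated cells in either genotype, where 50.9% of all genes in WT and 48.2% in W330R were called. From day 2 to day 6 there were 4 higher and 1 lower in WT, 2 and 1 in W330R, and 8 and 1 in the double mutant. Of all genes, 26.6%, 25.0% and 23.2% were called in these genotypes, and the WT and W330R counts were near that share. Replicate 1 exceeded replicate 2 on day 2 in each genotype for Fos (2.56 to 5.18 times) and Egr1 (2.46 to 6.80 times) as it did for Klf6. Ier2 had smaller gaps that way, at 137 against 73.2 CPM in WT, 109 against 76.7 in W330R and 138 against 93.1 in the double mutant. Junb went the other way, at 139 against 165 CPM in WT, 151 against 207 in W330R and 121 against 175 in the double mutant. Over the 18 libraries of days 2 to 6, log2 CPM of Klf6 and of Klf2 had correlations of 0.74 and 0.80 with Fos, and of 0.78 and 0.79 with Egr1. These were not particular to Klf2 and Klf6. Klf4 had 0.76 with Fos and 0.84 with Egr1, Klf13 0.64 and 0.45, Klf7 0.5 and 0.54, and Klf3 0.42 and 0.67. Klf15 had 0.22 with each. Klf9 had -0.69 and -0.75, Klf5 -0.56 and -0.63, and Klf10 -0.44 and -0.54. The part of whatever moves Fos in the replicate differences of Klf2 and Klf6 was not tested.

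**Figure D4:**
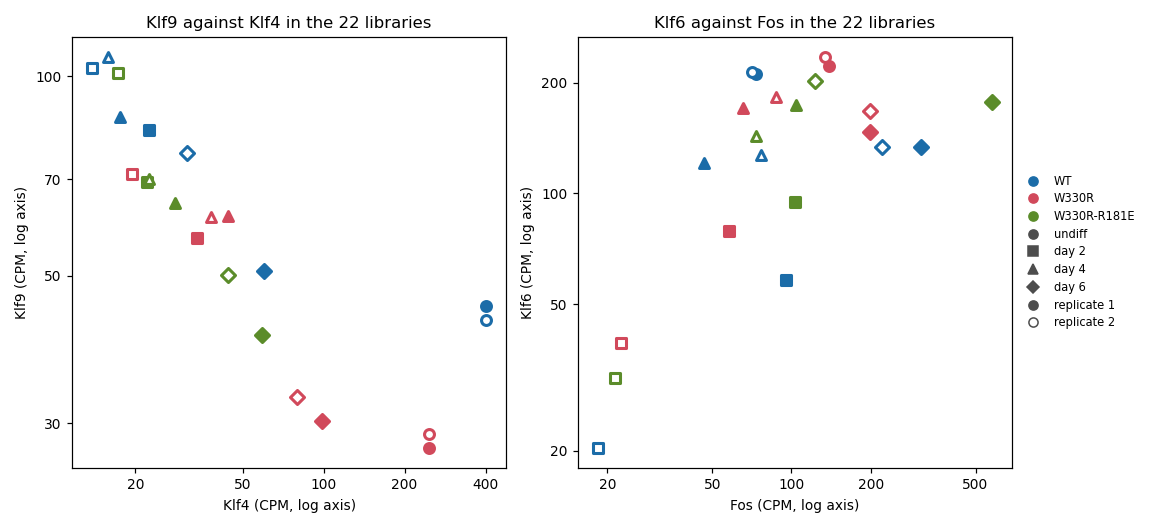
Klf9 against Klf4 (left) and Klf6 against Fos (right) in each of the 22 libraries, in CPM on log axes, with genotype in color, stage as shape and replicate 2 as open symbols. In the left panel the libraries of days 2 to 6 fall along 1 descending line on which W330R lies toward high Klf4 and low Klf9. In the right panel the 3 open squares, replicate 2 of day 2, are lowest in both genes.

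Within the family, profiles were compared over the libraries. Over the 22 libraries Klf3 and Klf4 were the most alike (Pearson r of log2 CPM 0.938, and 0.747 over the 18 libraries of days 2 to 6), followed by Klf7 with each of them (0.885 in both cases), and Klf2 and Klf6 had 0.833. Klf4 and Klf9 were the most opposed (-0.838, and -0.953 over days 2 to 6), and Klf2 and Klf5 had -0.814. Klf5 and Klf10, with 0.481 over all libraries, had 0.862 over days 2 to 6, where both are high on day 2 only. These correlations run over libraries that share conditions and are given as descriptions. Replicate 1 had more Klf4 than replicate 2 in 9 of 9 conditions of days 2 to 6, and more Klf9 in 1 of 9. The part of the replicate number in the opposition of Klf4 and Klf9 was not tested.

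Each member was also compared with 11154 genes, or 11155 for Klf15, whose log2 CPM averaged 1 or more. The closest profiles were those of Abca8b for Klf2 (r = 0.966), Flrt2 for Klf3 (0.978), Rfc3 for Klf4 (0.982), Tagap1 for Klf5 (0.952), Lrch1 for Klf6 (0.952), Serpinb9b for Klf7 (0.970), Prkab2 for Klf9 (0.938), 5031439G07Rik for Klf10 (0.943), Sptbn1 for Klf13 (0.906) and Creld1 for Klf15 (0.754). In second place were Yif1b for Klf2 (0.956), Wisp1 for Klf3 (0.969), Plekho2 for Klf4 (0.969), Gnl2 for Klf5 (0.949), Anxa5 for Klf6 (0.945), Trim16 for Klf7 (0.967), the glycolytic enzyme gene Hk2 for Klf9 (0.933), Rps27a for Klf10 (0.935), the unfolded protein response kinase gene Eif2ak3 for Klf13 (0.873) and Nudt12 for Klf15 (0.741).

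The rest of the KLF and SP family is given for comparison. Of 16 other family members, 11 passed the filter. On day 2 in WT 4 of these were lower and 0 higher (Sp8, Klf8, Sp2 and Sp1, from -3.56 ± 0.97 to -1.05 ± 0.15), where 50.9% of all genes were called. In W330R 5 were lower and 2 higher, where 48.2% of all genes were called. Sp8 reached at most 0.98 CPM and was at 0 in 7 libraries. From day 2 to day 6, Sp2 rose (0.75 to 0.98) and Sp3 fell (-0.89 to -0.77) in each of the 3 genotypes. No other of the 11 was called, against 26.6%, 25.0% and 23.2% of all genes in WT, W330R and the double mutant. Between W330R and WT over days 2 to 6 none of the 11 was called, against 29.0% of all genes. Between the double mutant and WT Sp3 was the 1 called (-0.31 ± 0.09), against 9.57% of all genes. Klf14, Klf17, Sp5 and Sp7 did not exceed 0.397 CPM in any library.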

How the data were processed

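Total RNA from 22 samples of C3H 10T1/2 cells in 11 conditions was sequenced with an NEBNext Ultra II kit. The authors deposited 1 table of gene-level expected counts (estimated counts, here whole numbers), and the submitters' processing notes name kallisto, DESeq2 1.40 and GRCm39, with no role or order. The rounding step, the strand setting and the treatment of DNMT3A transgene reads are not given in the sources used here. In 6 columns the double mutant is named R181A, where the labels say R181E. Samples were grouped by their labels.

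Genes passing edgeR's filterByExpr (minimum count 10, minimum total 15) were kept, 14520 of 30170, of which 7067 had no count. Counts were scaled by TMM and fitted with 1 mean per condition over 22 libraries (11 residual degrees of freedom), with edgeR 4.0.16 quasi-likelihood tests in R 4.3.3, two-sided, and Benjamini-Hochberg adjustment over the kept genes at 0.05. CPM are counts over the kept-gene total times the TMM factor. Correlations used log2 CPM with a prior count of 2. A count of 0 allows up to 3 counts, which covers counting error only. Alternatives were DESeq2 1.42.0, RLE scaling, no filter, a fit of only the conditions compared, the replicate number as a block and each library left out. Transcript lengths are those of the longest protein-coding transcript in GENCODE M21, and promoters are from RefSeq. The tests were checked on simulated data. The members and the gene lists, which were written from general knowledge, were chosen with earlier results of these data known. All 10 members were named, and the 2 genes with the highest correlation were named for each. Klf13 overlaps an antisense gene, E030018B13Rik, of at most 0.267 CPM.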

Additional observations from a re-analysis of the deposited data

Results flagged for a closer look

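In 3 members the difference between W330R and WT had the opposite direction before differentiation and on at least 1 later day. For Klf4 the difference over days 2 to 6 minus that in undifferentiated cells was 1.64 on the log2 scale (edgeR adjusted p = 0.0145). For Klf3, where both W330R libraries were below both WT libraries before differentiation and above them on days 2, 4 and 6, the same value was 0.45, which did not pass the test (adjusted p = 0.102). For Klf7, below WT before differentiation, overlapping on days 2 and 4 and above WT on day 6, it was 0.36 (adjusted p = 0.403). The contrast was chosen after the values were seen. With 2 libraries per condition no library could be tested as an outlier.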

How the results depend on the processing

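The calls of day 2 against undifferentiated cells kept their direction and their side of the threshold for the members called, under every alternative and without any library. Counts of called genes moved by over 1.5 times as follows, and the cause was not tested. In fits of only the conditions compared, day 6 against day 2 gave 843 genes in place of 3862 in WT (3 members in place of 7) and 79 in place of 3369 in the double mutant (1 member in place of 8). W330R against WT undifferentiated gave 4043 in place of 254 (6 members in place of 0), the double mutant against WT 152 in place of 1390 (0 members in place of 2), and the genotype difference in day 6 against day 2 gave 0 in place of 13. With DESeq2 these became 528 undifferentiated, 2272 (4 members) for the double mutant against WT, 5 members in place of 3 for the double mutant against W330R, 672 in place of 271 for the genotype difference in day 2 against undifferentiated, 129 for that in day 6 against day 2, and 1532 in place of 978 for the contrast added after seeing the data. With the replicate block they were 392 genes and 1 member, Klf9, undifferentiated, 2338 for the double mutant against WT, where Klf9 was added (adjusted p = 0.0113), 6 members for the double mutant against W330R, where Klf5, Klf9 and Klf13 were added (adjusted p = 0.0393, 0.0108 and 0.0365), 510 genes and 1 member, Klf4, for the difference in day 2 against undifferentiated, 24 for that in day 6 against day 2, and 1469 for the added contrast. Without a filter the difference in day 6 against day 2 gave 33. With RLE scaling the highest condition mean was 399.3 in place of 401 CPM for Klf4 and 180.3 in place of 179 CPM for Klf13, more than the spread of those close replicates.

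With single libraries left out, called genes ranged from 75 to 263 for the difference in day 2 against undifferentiated, 0 to 46 for that in day 6 against day 2, 233 to 1256 (0 to 1 members) for the added contrast, 48 to 58 for W330R against WT undifferentiated, 1661 to 2642 for W330R day 6 against day 2, 1629 to 2473 (1 to 3 members) for the double mutant against W330R, 495 to 2111 (1 to 5 members) for the double mutant against WT, 1373 to 3853 (4 to 8 members) for its day 6 against day 2, and 2109 to 3423 (4 to 7 members) for WT day 6 against day 2. Where this leaves 1 library in a condition, that library is assumed to vary like the others. Only Klf15 reversed, to 0.255 for W330R against WT (range -4.53 to 0.26) and to 0.343 for the double mutant against WT (range -4.54 to 0.34), both without replicate 1 of WT on day 2, which leaves that condition with a library at 0 counts, so neither value estimates the difference.

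The replicate numbers were not taken to pair libraries, since the labels tie them to nothing and only 26 of 55 pairs of conditions had a correlation of deviations over 0.1, with a lowest of -0.0665. Among days 2 to 6 alone it was 26 of 36 pairs (median 0.18, lowest -0.0213), and the pairs with undifferentiated libraries, whose replicates hardly differ, make up the rest. For 18 of 22 libraries the best match in another condition had the same number, a hint from the data and not from the design. In the 9 conditions of days 2 to 6, replicate 1 was the higher in 9 for Klf4, 8 for Klf5 and 1 for Klf9. For the other members it was the higher in 5 or 6 of 9. For Klf15, at most 104 counts in a library, the 2 libraries of a WT day differed widely, and its genotype differences were not resolved against that spread.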
